A study of Mus musculus with 2 samples.

Results

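A set of 10 genes of oxygen sensing was described in 2 states of mouse pluripotency: the hypoxia-inducible factor genes Hif1a and Epas1, the prolyl hydroxylase genes Egln1 and Egln3, the ubiquitin ligase gene Vhl, and the targets Bnip3, Bnip3l, Fam162a, Car9 and Vegfa. They were chosen by gene symbol, and all 10 were found among the 18032 genes of the deposited expression table. Polyadenylated RNA was sequenced from 1 library per state. The cEpiSC library came from epiblast stem cells made in culture from ground-state cells. These were plated on fibronectin in 2iLIF for 24 h and then kept for 2 days in N2B27 with activin A (20 ng/ml) and FGF2 (12 ng/ml). The mESC library came from wild-type E14TG2a embryonic stem cells, an established line, in 2iLIF. That serum-free medium holds LIF at 100 units/ml, 1 µM of the MEK inhibitor PD0325901, which blocks ERK signalling, and 3 µM of the GSK3 inhibitor CHIR99021. The wild-type genotype and the starting culture in 2iLIF were shared, the oxygen level of the cultures is not given in the sources used here, and the states also differ in medium and added factors. Effects of the state and of the medium therefore cannot be told apart, and neither can fewer cells of a kind and less RNA per cell.

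Hypoxia-inducible factors are pairs of an alpha subunit, such as the products of Hif1a and Epas1, and the constant partner Arnt. In cells with oxygen, prolyl hydroxylases mark the alpha subunit, the Vhl protein binds the mark, and the subunit is degraded. Much of this control therefore acts on protein, which was not measured here. When oxygen falls, or when the pathway is switched on in other ways, the factors bind short DNA elements near their targets, which include glycolytic enzymes, mitophagy receptors and growth factors. Egln3 is itself such a target, and so is part of a feedback loop. Naive mouse stem cells respire as well as ferment glucose, whereas primed epiblast stem cells are known for a more glycolytic metabolism.

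The libraries held 1.996e+07 estimated counts in cEpiSC and 1.984e+07 in mESC. Markers of the states went with their labels. All 6 primed genes of the list stood 2-fold or more above mESC in cEpiSC, with a median log2 ratio of 3.27. Of these 6, Fgf5, Pou3f1 and Fgf15 were below the limit of 1 CPM in mESC and passed it only through cEpiSC. Among all genes that passed this limit, 13.6% were higher by 2-fold or more and 9.25% lower. Of 6 naive genes, 4 were called lower and 2 lay within 2-fold. All 6 together summed to 856 CPM in cEpiSC and 2658 CPM in mESC, so transcripts of the naive state were still present after conversion. Fibroblast markers summed to 13.0 CPM in cEpiSC and 16.4 CPM in mESC, with Postn at 0 counts in both libraries. Within that list Thy1 was higher (94 counts in cEpiSC, 21 in mESC) and Pdgfrb lower (120 counts in cEpiSC, 244 in mESC), and their part in the results was not tested. Mesendoderm markers summed to 27.1 CPM in cEpiSC and 32.1 CPM in mESC, with 0 of 6 called higher and 3 lower. Of these 3, T and Mixl1 passed the limit of 1 CPM only through mESC. With 1 library per state, no difference has a replicate check, no test between states was possible and no p-value is given.

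Egln3, Bnip3, Epas1, Car9 and Fam162a were 2.94-fold to 10.5-fold higher in cEpiSC, Vegfa was 2.61-fold lower, and Hif1a, Egln1, Vhl and Bnip3l lay within 2-fold. Genes that reached 1 CPM (a count scaled by the library total and its TMM factor) in at least 1 library were tested, and the size of the ratio alone decided the call, at 2-fold; all 10 members were tested. By this rule 5 of 10 members were higher, where 13.6% of the 13243 tested genes were, and 1 of 10 was lower, where 9.25% were. Among all tested genes, 805 of 1796 higher ones were under 1 CPM in mESC, and 283 of 1225 lower ones in cEpiSC. None of the called members was. At 4-fold or more, 3 members were higher (Egln3, Bnip3 and Epas1) beside 5.83% of tested genes, and none was lower beside 2.84%. The median log2 ratio of cEpiSC over mESC was 0.81 over the members and -0.02 over all tested genes. The members are few and were picked by name with earlier results of these data known, so these shares are a description.

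**Figure D1:**
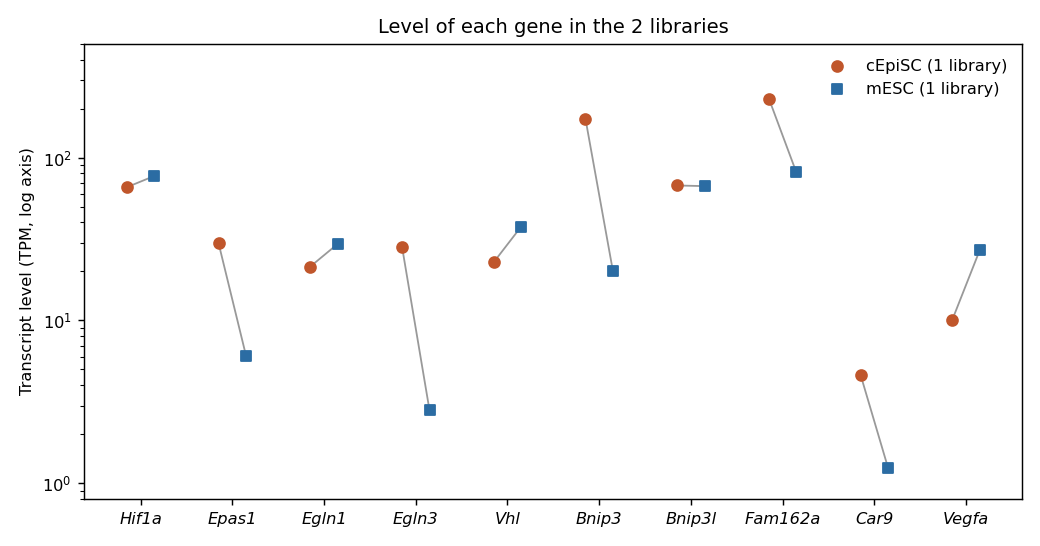
Level of each member gene in TPM (reads per transcript length, scaled to the same sum in each library, log axis) in the cEpiSC library (circles) and the mESC library (squares), with a grey line joining the values of a gene. Bnip3 stood at 174 TPM in cEpiSC and 20.1 TPM in mESC, and Vegfa at 10.1 TPM in cEpiSC and 27.1 TPM in mESC.

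**Figure D2:**
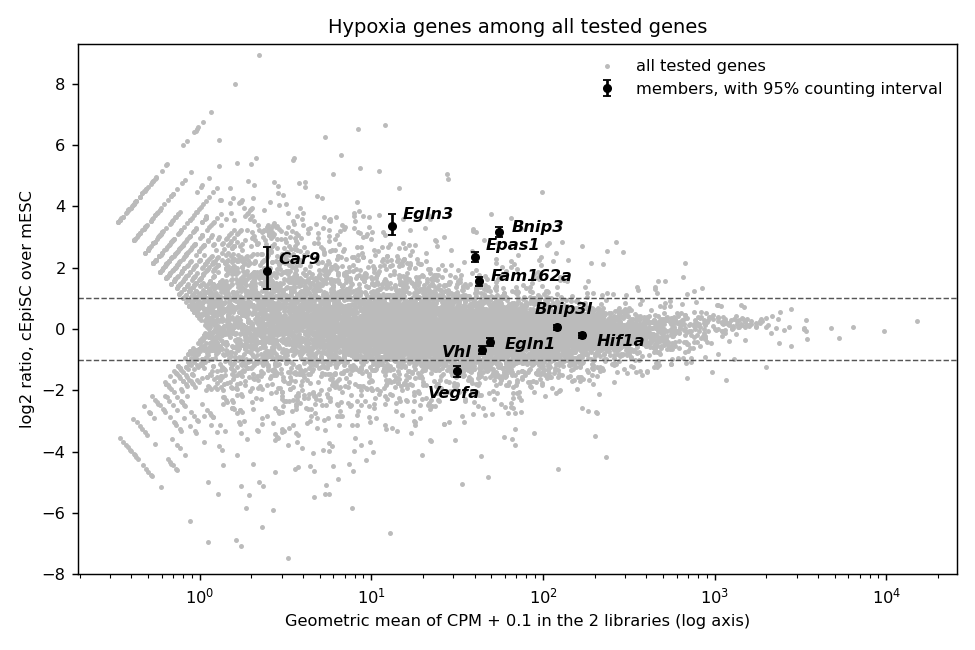
Log2 ratio of cEpiSC over mESC against the geometric mean level of each tested gene (grey, log axis), with the members in black. Bars are exact 95% counting intervals and dashed lines mark 2-fold. Egln3 and Bnip3 stand highest among the members, at 3.36 and 3.15, and Car9 has the widest interval.

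Of the alpha subunits, Epas1 was higher in cEpiSC and Hif1a was little different, so the make-up of the family shifted. Hif1a (Entrez 15251, chromosome 12, 73901324 to 73947554, plus strand of GRCm38.p6), which encodes HIF-1 alpha, had 3220 counts (65.9 TPM) in cEpiSC and 3520 counts (77.3 TPM) in mESC. Its log2 ratio was -0.21, with an exact 95% interval of -0.28 to -0.14. Such intervals cover counting error only, with the scaling held fixed and no replicate. They also take each count as an independent molecule, which PCR copies are not. Epas1 (Entrez 13819, chromosome 17, 86753864 to 86833410, plus strand) encodes HIF-2 alpha, the form best known from endothelium and from control of erythropoietin. Epas1 had 1846 counts (29.8 TPM) in cEpiSC and 343 counts (6.04 TPM) in mESC. It was 5.09-fold higher, at a log2 ratio of 2.34 (2.18 to 2.52). Hif1a was the more abundant of the pair in both libraries, but by much less in cEpiSC. As a share of the summed TPM of Hif1a, Epas1 and the third family gene Hif3a, Epas1 made up 29.7% in cEpiSC and 6.98% in mESC. Hif1a made up 65.8% in cEpiSC and 89.3% in mESC, and Hif3a 4.44% in cEpiSC and 3.70% in mESC. The summed level of the family was 100.1 TPM in cEpiSC and 86.5 TPM in mESC.

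The prolyl hydroxylase genes differed in direction. Egln3 (Entrez 112407, chromosome 12, 54178981 to 54203874, minus strand), which encodes the hypoxia-inducible hydroxylase PHD3, had the highest ratio of the members. It had 864 counts (28.4 TPM) in cEpiSC and 78 counts (2.80 TPM) in mESC. That was 10.5-fold higher, at a log2 ratio of 3.36 (3.05 to 3.74), and 217 of the 13243 tested genes had a higher ratio. Egln1 (Entrez 112405, chromosome 8, 124908587 to 124949254, minus strand) encodes PHD2, the hydroxylase that sets HIF-1 alpha levels in most cells with oxygen. Egln1 had 867 counts (21.4 TPM) in cEpiSC and 1095 counts (29.6 TPM) in mESC, at a log2 ratio of -0.42 (-0.55 to -0.29). The third hydroxylase gene, Egln2, stood at 30.8 TPM in cEpiSC and 45.95 TPM in mESC (log2 ratio -0.55). The summed level of the 3 hydroxylase genes was nearly the same, at 80.6 TPM in cEpiSC and 78.3 TPM in mESC, while its make-up differed. Egln3 made up 35.2% of it in cEpiSC and 3.57% in mESC, Egln2 38.2% in cEpiSC and 58.7% in mESC, and Egln1 26.6% in cEpiSC and 37.8% in mESC. In mESC the 3 genes spanned a wide range of levels, and in cEpiSC they lay within 2-fold of each other.

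Vhl (Entrez 22346, chromosome 6, 113623994 to 113631634, plus strand) encodes the protein that recognises the hydroxylated alpha subunit. Vhl had 709 counts (22.8 TPM) in cEpiSC and 1075 counts (37.8 TPM) in mESC, at a log2 ratio of -0.68 (-0.82 to -0.54). It was 1.60-fold lower, short of the 2-fold rule, and its interval lay wholly on the lower side of 0.

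**Figure D3:**
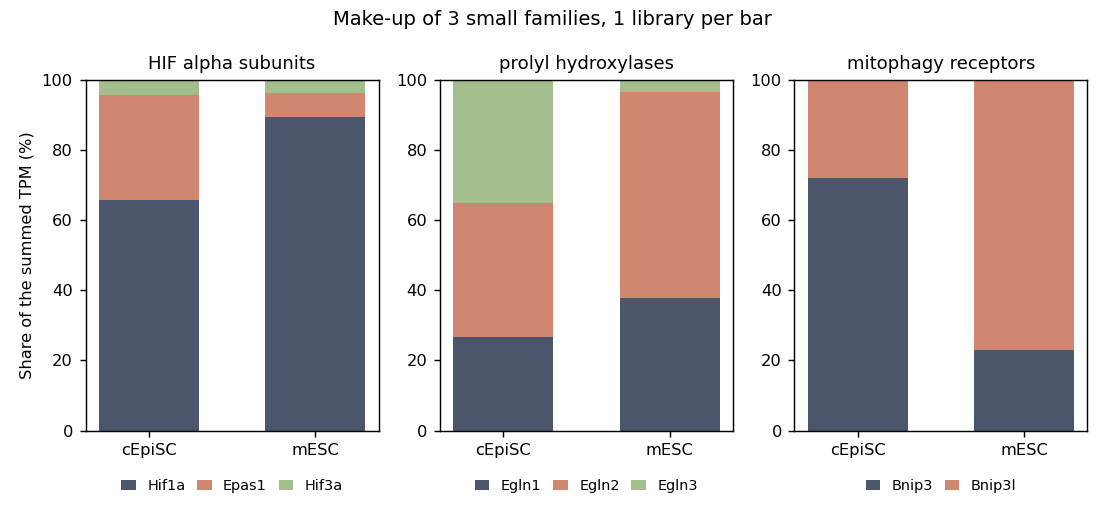
Share of the summed TPM (%) taken by each gene of 3 small families, with the cEpiSC library left of the mESC library in each panel. Larger shares in cEpiSC are seen for Epas1 (29.7% in cEpiSC, 6.98% in mESC), Egln3 (35.2% in cEpiSC, 3.57% in mESC) and Bnip3 (72.0% in cEpiSC, 23.1% in mESC).

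The mitochondrial targets differed from each other. Bnip3 and Bnip3l encode related receptors of the outer mitochondrial membrane that recruit autophagosomes, so that mitochondria are cleared under low oxygen. Bnip3 (Entrez 12176, chromosome 7, 138890836 to 138909506, minus strand) had 3403 counts (174 TPM) in cEpiSC and 360 counts (20.1 TPM) in mESC. It was 8.94-fold higher, at a log2 ratio of 3.15 (3.00 to 3.32), and ranked 869th by TPM in cEpiSC and 6311th in mESC among 18032 genes. Bnip3l (Entrez 12177, chromosome 14, 66985238 to 67008877, minus strand), which encodes Nix, had 2504 counts (67.5 TPM) in cEpiSC and 2270 counts (66.9 TPM) in mESC. Its log2 ratio of 0.06 had an interval of -0.02 to 0.14, so no difference beyond counting error was seen between these 2 libraries. With 1 library per state, the interval cannot exclude a difference between the states. The order of the pair was thus opposite in the libraries: Bnip3 made up 72.0% of their summed TPM in cEpiSC and 23.1% in mESC. Fam162a (Entrez 70186, chromosome 16, 36043844 to 36071561, minus strand) encodes a mitochondrial protein linked to cell death under hypoxia. Fam162a was the member with the highest level per length in both libraries, with 1473 counts (231 TPM) in cEpiSC and 474 counts (81.2 TPM) in mESC. It was 2.94-fold higher, at a log2 ratio of 1.55 (1.40 to 1.71).

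The targets whose products act outside the cell or at its surface also split. Vegfa (Entrez 22339, chromosome 17, 46016993 to 46032377, minus strand), the angiogenic growth factor gene often used to read HIF activity, was the lone lower member. It had 396 counts (10.1 TPM) in cEpiSC and 976 counts (27.1 TPM) in mESC. It was 2.61-fold lower, at a log2 ratio of -1.38 (-1.55 to -1.21), and 725 tested genes had a lower ratio. Car9 (Entrez 230099, chromosome 4, 43507026 to 43513729, plus strand) encodes carbonic anhydrase IX, a membrane enzyme that helps cells export acid and is among the most hypoxia-responsive genes in many tumours. Car9 had 95 counts (4.63 TPM) in cEpiSC and 23 counts (1.24 TPM) in mESC, the lowest level of the members in mESC and in cEpiSC. It was 3.91-fold higher, at a log2 ratio of 1.88 (1.296 to 2.69). Its interval is wide because the counts are few, yet lies above 2-fold throughout. The same holds of the other 4 higher members, and the interval of Vegfa lies below 2-fold lower throughout. Intervals wholly above 2-fold were found for 9.15% of tested genes, and wholly beyond 2-fold lower for 6.34%.

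The counts of the 10 members were whole to within 0.005 in both libraries. The effective transcript length implied by counts and FPKM differed between the libraries by 0.03 or less on the log2 scale for each member (-0.03 for Hif1a). Across 10848 genes at 1 FPKM or more in both libraries, the central 90% of this difference ran from -0.06 to 0.04. GENCODE vM21 places other gene models across Bnip3, Car9 and Hif1a on the opposite strand, and across Hif1a and Epas1 on the same strand, which were not analysed here. The opposite-strand gene Wdr5b within the Fam162a locus had 16 counts in cEpiSC and 16 in mESC. Whether counting used strand is not given in the sources used here.

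Promoter windows of the members that were higher, and of Vegfa as the lower member, are printed because HIF binds the core of the hypoxia response element, ACGTG or GCGTG. Windows run from 250 bases before to 50 bases after the annotated start, in GRCm38.p6 from RefSeq, and were read for 8 of the 10 members (9 windows). Epas1 and Bnip3l were not analysed here for promoter sequence. Capitals mark each match on the printed strand or, as CACGT or CACGC, on the other strand; in CACGTG the matches of the strands overlap. The windows, written 5′ to 3′ on the strand of the gene, lie at chr12:54203825-54204124 (Egln3), chr7:138909457-138909756 (Bnip3), chr4:43506776-43507075 (Car9), chr16:36071512-36071811 (Fam162a) and chr17:46032328-46032627 (the upstream window of Vegfa).
Egln3: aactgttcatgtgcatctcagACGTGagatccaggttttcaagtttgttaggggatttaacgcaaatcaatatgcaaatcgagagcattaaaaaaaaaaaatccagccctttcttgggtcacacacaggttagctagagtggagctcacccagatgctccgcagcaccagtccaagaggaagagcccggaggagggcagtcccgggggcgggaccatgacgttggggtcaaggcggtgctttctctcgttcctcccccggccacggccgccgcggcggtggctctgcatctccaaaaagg
Bnip3: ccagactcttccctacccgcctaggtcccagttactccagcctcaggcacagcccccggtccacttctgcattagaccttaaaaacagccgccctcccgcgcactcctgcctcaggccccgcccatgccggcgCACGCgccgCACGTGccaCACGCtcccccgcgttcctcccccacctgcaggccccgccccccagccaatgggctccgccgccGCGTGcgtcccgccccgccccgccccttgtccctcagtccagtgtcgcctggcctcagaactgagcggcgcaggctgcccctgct
Car9: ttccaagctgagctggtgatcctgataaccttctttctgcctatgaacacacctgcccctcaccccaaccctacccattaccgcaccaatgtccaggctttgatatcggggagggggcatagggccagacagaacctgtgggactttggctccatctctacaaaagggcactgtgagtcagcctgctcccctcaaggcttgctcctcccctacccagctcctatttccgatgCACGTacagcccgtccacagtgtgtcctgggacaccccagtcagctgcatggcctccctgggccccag
Fam162a: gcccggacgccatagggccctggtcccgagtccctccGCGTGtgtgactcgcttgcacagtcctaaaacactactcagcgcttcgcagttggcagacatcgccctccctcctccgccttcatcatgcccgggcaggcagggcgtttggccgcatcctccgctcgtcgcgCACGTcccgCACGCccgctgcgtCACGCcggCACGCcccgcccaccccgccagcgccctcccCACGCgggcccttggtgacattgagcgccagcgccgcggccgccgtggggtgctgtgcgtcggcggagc
Vegfa: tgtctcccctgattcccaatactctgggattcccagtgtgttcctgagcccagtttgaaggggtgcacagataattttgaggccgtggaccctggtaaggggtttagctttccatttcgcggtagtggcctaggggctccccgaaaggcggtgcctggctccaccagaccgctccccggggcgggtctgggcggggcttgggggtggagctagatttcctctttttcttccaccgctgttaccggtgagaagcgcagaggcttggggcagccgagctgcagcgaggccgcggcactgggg

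These windows differ widely in matches. Fam162a held 6 matches and Bnip3 5, counted on both strands, with the 4 upstream ones of Bnip3 packed between 117 and 95 bases before the start. Egln3 held 1, which began 229 bases before the start, and Car9 held 1, which began 18 bases before it. Among members that were not higher, Hif1a held 3 matches in a window at a start inside its annotated extent, Egln1 2, Vhl 0, the upstream window of Vegfa 0 and its second window, inside the gene, 2. Thus 7 of 9 member windows held at least 1 match. So did 43.8% of all 32851 RefSeq windows and 61.2% of the 13513 windows of tested genes, which came from 10578 genes. At least 3 matches were found in 3 of 9 member windows and in 15.7% of windows of tested genes. A CACGTG, as in Bnip3 and Hif1a, was counted on each strand, in these and in all other windows. A match is a string of letters and not a shown binding site, and elements farther away are not searched here.

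**Figure D4:**
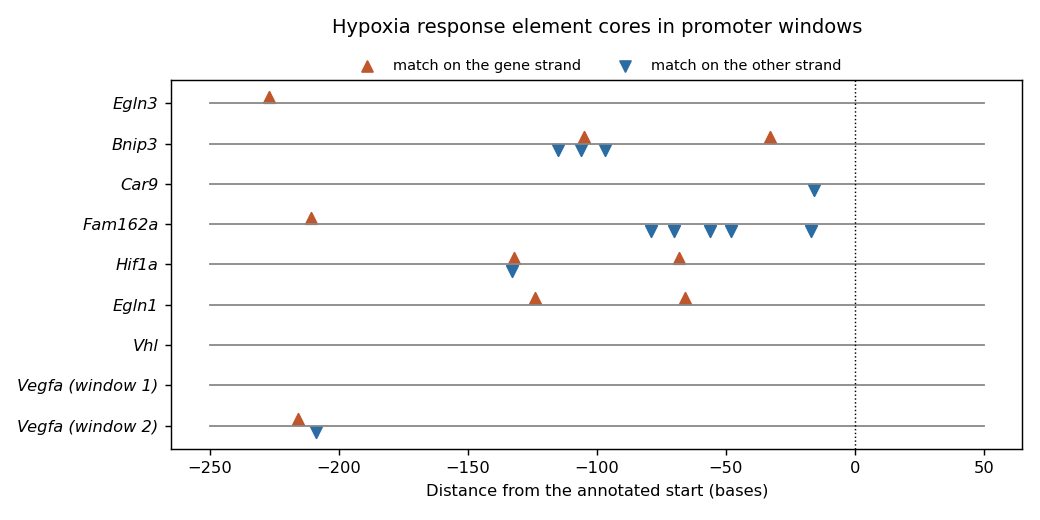
Matches to the core letters of the hypoxia response element in 9 promoter windows of 8 member genes, by distance in bases from the annotated start (dotted line). Upward triangles are matches on the strand of the gene and downward triangles on the other strand. Bnip3 and Fam162a hold 5 and 6 matches, and Vhl and the first Vegfa window hold 0.

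Of the rest of the oxygen-sensing machinery, 1 gene passed 2-fold. Among the 18 log2 ratios 12 were below 0 (66.7%), as were 51.2% of those of all tested genes. Of the 18 listed genes (the partner subunits, other hydroxylases, the ubiquitin ligase subunits, Siah ligases and coactivators), 0 were called higher (beside 13.6% of all tested genes) and 1 lower (beside 9.25%), and 17 lay within 2-fold. Their median log2 ratio was -0.18, beside -0.02 over all tested genes. The lower gene was Crebbp, a histone acetyltransferase and coactivator of HIF, with 484 counts in cEpiSC and 1005 in mESC, at a log2 ratio of -1.13 (-1.29 to -0.98). After the ratios were centred on transcript length, or with FPKM, Crebbp was within 2-fold as well. Arnt, the partner of the alpha subunits, stood at 51.1 TPM in cEpiSC and 55.8 TPM in mESC (-0.07, interval -0.15 to 0.01). Hif1an, whose product hydroxylates an asparagine of the alpha subunit and so blocks coactivator binding, stood at 10.9 TPM in cEpiSC and 15.1 TPM in mESC (-0.43). Cul2, the scaffold of the Vhl ligase, stood at 63.9 TPM in cEpiSC and 67.9 TPM in mESC (-0.05).

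Among glycolytic targets of HIF, the highest ratios were those of Slc16a3 and Pdk1, and the glucose transporter genes Slc2a1 and Slc2a3 differed in direction. Of 21 listed genes, 6 were called higher (13.6% of all tested genes were) and 3 lower (9.25% were), and 12 lay within 2-fold. The median log2 ratio was 0.55. Slc16a3, which encodes the lactate exporter MCT4, stood at 210.3 TPM in cEpiSC and 31.5 TPM in mESC, at a log2 ratio of 2.80 (2.70 to 2.91). Pdk1, whose product keeps pyruvate out of the citric acid cycle, stood at 196 TPM in cEpiSC and 29.5 TPM in mESC (2.69, interval 2.61 to 2.78). Also higher were the phosphoglycerate kinase gene Pgk1 (1.24), the phosphofructokinase gene Pfkl (1.16) and the aldolase gene Aldoc (1.03). Ldha (0.76) and Pkm (0.55), which act at lactate and pyruvate, lay within 2-fold. Slc2a1, the glucose transporter gene GLUT1, stood at 619 TPM in cEpiSC and 218 TPM in mESC (1.55, interval 1.51 to 1.60). Hk1, a hexokinase gene, stood at 62.4 TPM in cEpiSC and 166 TPM in mESC (2.58-fold lower). Hk2, the hexokinase usually named as a HIF target, was lower as well (45.6 TPM in cEpiSC, 118 TPM in mESC, log2 ratio -1.34), as was the transporter gene Slc2a3 (584 TPM in cEpiSC, 1431 TPM in mESC, -1.25).

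In the main setting, non-glycolytic targets of HIF other than the members were called in shares near those of all tested genes. The list leaves out the member targets Egln3, Bnip3, Car9 and Fam162a, which were higher, Vegfa, which was lower, and Bnip3l. Of 37 listed genes 31 were tested, with 5 called higher (16.1%, beside 13.6% of all tested genes) and 4 lower (12.9%, beside 9.25%), and 22 lay within 2-fold. Their median log2 ratio was 0.19. The higher ones were led by Loxl2, a lysyl oxidase of the matrix (405 counts in cEpiSC and 112 in mESC, log2 ratio 1.76, interval 1.47 to 2.09). Trf, the iron carrier transferrin, had 388 counts in cEpiSC and 112 in mESC (1.69, interval 1.40 to 2.03). P4ha2, a collagen prolyl hydroxylase subunit, had 372 counts in cEpiSC and 126 in mESC (1.47, interval 1.19 to 1.78), and its relative P4ha1 had 2143 in cEpiSC and 873 in mESC (1.21). Of the lower ones, Gys1, the glycogen synthase gene, had the largest difference, with 496 counts in cEpiSC and 1157 in mESC (2.47-fold lower, log2 interval -1.46 to -1.15). Cxcr4, also called lower (16 counts in cEpiSC, 40 in mESC), was tested only through mESC, where it is high. With TPM or FPKM, 2 of these targets were lower rather than 4. With library totals 7 of the 31 were higher rather than 5, beside 1933 of 13289 tested genes. Several genes commonly used in hypoxia signatures were within 2-fold: Ndrg1 at -0.87, Bhlhe40 at -0.85, Kdm3a at -0.73, Ddit4 at 0.16, Hilpda at 0.78 and Ankrd37 at 0.97. Epo, the erythropoietin gene, had 7 counts in cEpiSC and 0 in mESC and was below the abundance limit.

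**Figure D5:**
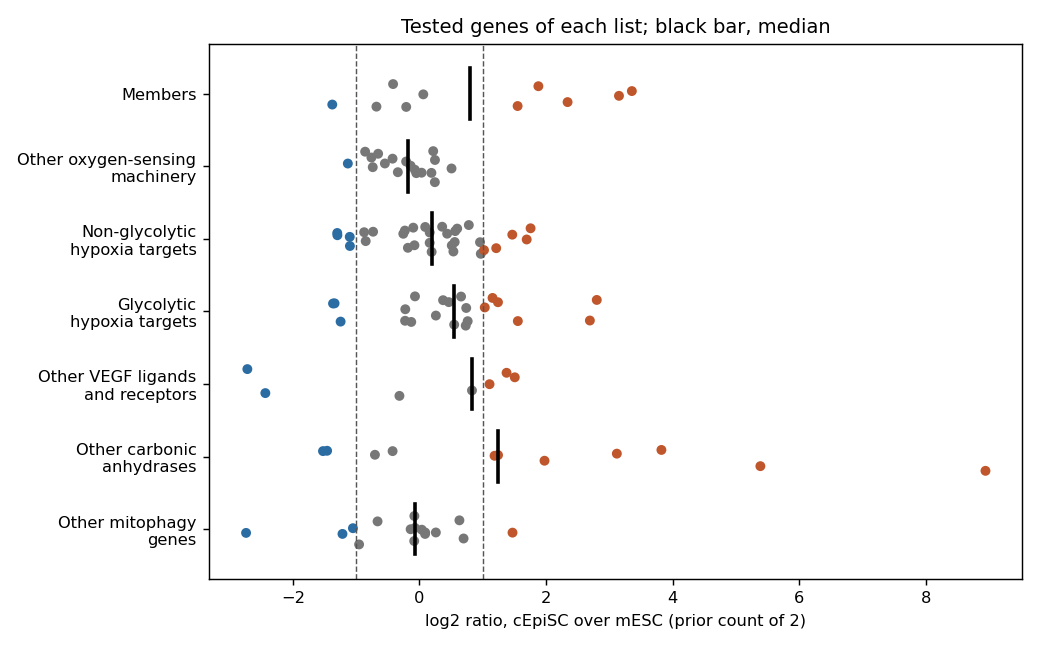
Log2 ratio of cEpiSC over mESC for each tested gene of the member list and of 6 companion lists; orange points are at least 2-fold higher in cEpiSC, blue at least 2-fold lower and grey within 2-fold, and black bars are medians. Vertical jitter carries no value. The members spread from -1.38 to 3.36, and the other oxygen-sensing genes from -1.13 to 0.51.

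No other ligand gene of the Vegfa family was called lower, and transcripts of the main Vegfa receptors were scarce. Of 9 other ligand and receptor genes 7 were tested, with 3 called higher (beside 13.6% of all tested genes) and 2 lower (beside 9.25%), and 2 lay within 2-fold. Vegfb was the most abundant ligand of the family, at 81.5 TPM in cEpiSC and 105 TPM in mESC (log2 ratio -0.32). The main signalling receptor gene of Vegfa, Kdr, had 5 counts in cEpiSC and 42 in mESC (-2.72, interval -4.85 to -1.82), and Flt1 had 2 in cEpiSC and 3 in mESC. The co-receptor gene Nrp2 had 30 counts in cEpiSC and 162 in mESC (-2.44, interval -3.13 to -1.95). The co-receptor gene Nrp1 went the other way, with 19 counts in cEpiSC and 1 in mESC (interval 1.51 to 9.54). Nrp1 was below the abundance limit and was not tested. Flt4, a receptor for Vegfc, had 154 counts in cEpiSC and 50 in mESC (1.51, interval 1.07 to 2.03), and the ligand gene Pgf had 28 in cEpiSC and 9 in mESC (1.38, interval 0.43 to 2.83). Pgf was tested only through cEpiSC and Kdr only through mESC, the library where each is high. These levels are low, and with TPM and a pseudocount of 1 the calls were 0 higher and 1 lower, with FPKM 0 and 0. The endothelial marker Cdh5 had 1 count in cEpiSC and 2 in mESC, whereas Pecam1, which stem cells also express, stood at 58.3 TPM in cEpiSC and 117 TPM in mESC. From the same list, Tek had 421 counts in cEpiSC and 355 in mESC, and Esam 29 in cEpiSC and 0 in mESC.

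Car9 was not the carbonic anhydrase with the largest difference. Of 14 other carbonic anhydrase genes that the table lists, 11 were tested, with 7 called higher (beside 13.6% of all tested genes) and 2 lower (beside 9.25%), and 2 lay within 2-fold. Of the 7 higher genes, 5 (Car3, Car4, Car5b, Car6 and Car14) were under 1 CPM in mESC and so were tested only through cEpiSC, where they are high. Car4, a membrane-anchored form, had 1011 counts in cEpiSC and 0 in mESC. That was 319-fold higher when mESC is set to a floor of 3 counts (nearer limit of the log2 interval 8.0). Car14 had 84 counts in cEpiSC and 0 in mESC (26.5-fold higher against that floor, nearer limit of the log2 interval 4.40). Car3 had 57 counts in cEpiSC and 2 in mESC (log2 interval 2.83 to 7.83), and Car6 had 25 in cEpiSC and 1 in mESC (1.95 to 9.92). Car12, the other membrane form known as a hypoxia target, had 123 counts in cEpiSC and 50 in mESC (1.19). Per length, Car2 was the most abundant of the family in both libraries, at 135 TPM in cEpiSC and 58.6 TPM in mESC. The median log2 ratio of the tested genes was 1.24, but 0.24 with a limit of 5 CPM, 0.67 with FPKM and 0.77 with TPM. With a limit of 5 CPM the count of higher genes was 3, and with FPKM 4.

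Of 17 other listed mitophagy genes 16 were tested, with 1 called higher (beside 13.6% of all tested genes) and 3 lower (beside 9.25%), and 12 lay within 2-fold. Their median log2 ratio was -0.08. The receptor gene Optn was the higher one, at 499 counts in cEpiSC and 169 in mESC (1.47, interval 1.23 to 1.74). Calcoco2, which encodes the receptor NDP52, had 490 counts in cEpiSC and 3106 in mESC (-2.74, interval -2.89 to -2.61). Ulk1, the kinase that starts autophagy, had 4371 counts in cEpiSC and 9606 in mESC (-1.22, interval -1.27 to -1.17). Gabarap, a protein that receptors such as Bnip3 bind on the autophagosome, had 1132 counts in cEpiSC and 2220 in mESC (-1.05, interval -1.16 to -0.95). That interval reaches to within 2-fold.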

How the data were processed

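RNA was captured on oligo(dT) beads, copied with dUTP in the second strand and sequenced as paired reads on a BGI instrument, per the labels' protocols. GRCm38.p6, RSEM 1.3.1, DESeq2 1.34.0, HISAT2 and Bowtie2 appear in the submitters' processing notes, with roles, annotation, filters and strand setting not given in the sources used here. Per the file headers, the authors deposited estimated counts, which are unscaled, TPM, scaled per kilobase to 1 sum per library, and FPKM, scaled per kilobase and per library; 0 columns belonged to other samples.

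After rounding of the estimated counts, edgeR 4.0.16 (R 4.3.3) gave TMM factors of 1.03 for cEpiSC and 0.975 for mESC. Log2 ratios use a prior count of 2; folds and exact conditional (Clopper-Pearson) 95% intervals do not. Genes at 1 CPM or more in 1 library (13243) entered the counts of calls. The steps were tested on simulated data with counting error only, which says nothing of variation between libraries of a state. For a gene with 0 counts, the floor was 3 counts per library, or 0.147 CPM in cEpiSC and 0.155 CPM in mESC. A comparison of protein sequences that had been planned is not reported here. Gene positions were joined by Entrez identifier.

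The members and lists were chosen with earlier results of these data known. All members are named, and in each companion list up to 4 called genes with the largest absolute ratio; Arnt, Hif1an, Cul2, Egln2, Hif3a and other list genes were named after their values were seen. Alternatives were DESeq2 1.42.0 size factors, library totals, no abundance limit, a limit of 5 CPM, prior counts of 0.5 and 5, TPM or FPKM with a pseudocount of 1, and centring on the median of each of 10 bins of transcript length.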

Additional observations from a re-analysis of the deposited data

How the results depend on the processing

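Calls for 9 of the 10 members held under all 9 alternatives, and Car9 left the tested genes under the limit of 5 CPM, so that 4 members rather than 5 were higher there. The ratio of Egln3 ranged from 2.82 (FPKM) to 3.43, of Bnip3 from 3.05 to 3.23, of Epas1 from 2.12 to 2.49, of Car9 from 1.16 (FPKM) to 1.95, of Fam162a from 1.39 to 1.62 and of Vegfa from -1.38 to -1.18 (FPKM). Vhl stayed between -0.70 and -0.57, and Hif1a between -0.23 and -0.11, in part outside its counting interval. Over all tested genes, 1796 higher became 2712 with no abundance limit, 970 with the limit of 5 CPM, 1090 with TPM and 945 with FPKM, and 1225 lower became 680 with FPKM. With no limit 2 mitophagy genes were higher rather than 1. Lower mitophagy genes numbered 2 with library totals and with FPKM and 4 after centring on length, rather than 3. Among VEGF genes, 3 higher became 0 with TPM and with FPKM, and 2 lower became 1 with the limit of 5 CPM and with TPM and 0 with FPKM. Higher carbonic anhydrases numbered 3 with the limit of 5 CPM and 4 with FPKM rather than 7. Lower non-glycolytic targets numbered 2 with TPM and with FPKM rather than 4, and lower machinery genes 0 with FPKM and after centring on length rather than 1. Higher non-glycolytic targets numbered 7 with library totals, 6 after centring on length and 4 with TPM rather than 5. The pseudocount pulls low genes towards 0 and the limit tests fewer genes. FPKM summed to 590682 in cEpiSC and 543589 in mESC and were not rescaled. The median log2 ratio of all tested genes was 0.05 with FPKM and -0.02 in the main setting. The part of each in the changed calls, and other causes, were not tested. No paired analysis was possible because each state has 1 library. Few counts widen the intervals of Car9 among the members and of Kdr, Pgf, Car3 and Car6 among other genes.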

Other observations

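Promoters of genes that were higher in cEpiSC held the core letters of the hypoxia response element (ACGTG or GCGTG, either strand, 300-base windows) no more often than those of lower genes. At least 1 match was found in 53.1% of 1796 windows of higher genes, 53.6% of 1215 windows of lower genes and 63.5% of 10502 windows of genes within 2-fold. These windows came from 1364 higher genes, 929 lower genes and 8285 genes within 2-fold. Some genes thus had more than 1 window and others had none. Among the companion lists, the share was 78.6% of 14 windows for mitophagy genes, 76.7% of 30 for glycolytic hypoxia targets, 73.5% of 34 for non-glycolytic ones, 70.6% of 17 for oxygen-sensing machinery, 64.3% of 14 for carbonic anhydrases and 60% of 10 for VEGF genes. These are shares of letters in windows, with no test.

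The genes closest in pattern to Egln3, by Euclidean distance in log2(TPM + 1) over the 2 libraries, were Wdr86 (29.9 TPM in cEpiSC and 2.78 TPM in mESC, distance 0.08), Mapk12 (25.6 TPM in cEpiSC and 2.81 TPM in mESC, 0.14) and Slc39a14 (27.1 TPM in cEpiSC and 3.43 TPM in mESC, 0.23). Those closest to Vegfa were Itpka (10.3 TPM in cEpiSC and 27.6 TPM in mESC, 0.04), Vgll4 (10.4 TPM in cEpiSC and 26.6 TPM in mESC, 0.05) and Hip1 (10.6 TPM in cEpiSC and 28.1 TPM in mESC, 0.08). With 2 libraries such likeness says only that the levels are close.

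Epo had 7 counts in cEpiSC, 2.21-fold higher when the 0 in mESC is set to the floor of 3 counts. The nearer limit of its log2 interval, 0.45, lies below that fold. The endothelial gene Esam had 29 counts in cEpiSC and 0 in mESC (9.14-fold higher against that floor, nearer limit of the log2 interval 2.80). Esam was tested only through cEpiSC, where it is high. Tek had 421 counts in cEpiSC and 355 in mESC.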
